A study of Homo sapiens with 12 samples.

Results

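Long noncoding RNAs are transcripts that are read into RNA by the same polymerase as messenger RNAs but carry no long open reading frame. The genes described here are the 345 expressed long noncoding RNA genes of A375 cells, a cell line from a human malignant melanoma of the skin, out of 1347 genes with the same forms of symbol and 23705 genes in all. A gene belonged to this set when its current symbol starts with LINC or LNC, ends in -AS1, -AS2, -DT or -IT1, has the form of a microRNA host gene (MIR, a number, HG) or of a small nucleolar RNA (snoRNA) host gene (SNHG and a number), and when its mean level over all 12 libraries was at least 1 CPM, the count scaled to a library total of 1000000. The members were therefore chosen by a measured level, their mean over all conditions, and that level is given as a description with no test.

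RNA was sequenced from cells treated for 24 h with the DMSO vehicle alone, with 5 µM of rosiglitazone (RGZ), with 2 µM of T0070907, or with 5 µM of RGZ and 2 µM of T0070907 together, all in DMSO. RGZ is an agonist and T0070907 an antagonist of the nuclear receptor PPARγ, and the design asks which effects of RGZ are seen without and with the antagonist. Each of the 4 conditions had 3 libraries, 1 from each of 3 independent experiments, with the RNA of technical replicates pooled within an experiment. All groups are the same cell line in culture, so they show no other cell type and no tissue context. Total counts were between 8319455 and 11375227 per library. The detection floor of 3 counts corresponded to between 0.264 and 0.361 CPM, and none of the 345 members was at 0 counts in any library.

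The symbol of a long noncoding RNA says where it lies, not what it does. LINC genes lie between coding genes, -AS genes are read from the strand opposite a named gene, -DT genes start near the promoter of a named gene and run away from it, and -IT genes lie in an intron. MicroRNA host genes give the long transcript from which microRNAs are released, and SNHG genes carry snoRNAs, guides for the modification of ribosomal RNA, in their introns. PPARγ binds DNA together with the retinoid X receptor, classically at a pair of AGGTCA motifs separated by 1 base, and so raises transcription of genes for the uptake and storage of lipids.

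Of the microRNA hosts, MIR22HG, MIR31HG, MIR100HG and MIR503HG are those whose host transcript was called between conditions below. The mature microRNAs that lie inside these genes on the same strand are shown, among them those for which these hosts are named. They are from RefSeq (GRCh38.p14), 5′ to 3′, with the seed (bases 2 to 8), the part that pairs with target messages, in capitals. All 12 seeds are different, so no pair of them forms a seed family. Mature microRNAs were not measured here, and the values below are those of the host transcripts.
miR-125b-1-3p: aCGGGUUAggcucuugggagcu
miR-125b-5p: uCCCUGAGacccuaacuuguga
let-7a-2-3p: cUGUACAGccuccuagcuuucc
let-7a-5p: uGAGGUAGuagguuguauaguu
miR-10526-3p: aAAAGGGGgcugagguggag
miR-100-3p: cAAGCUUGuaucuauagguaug
miR-100-5p: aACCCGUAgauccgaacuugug
miR-22-3p: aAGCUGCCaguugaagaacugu
miR-22-5p: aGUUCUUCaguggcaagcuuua
miR-31-5p: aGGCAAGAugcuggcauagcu
miR-503-3p: gGGGUAUUguuuccgcugccagg
miR-503-5p: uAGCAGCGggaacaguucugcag
MIR22HG holds miR-22, MIR31HG holds miR-31, MIR503HG holds miR-503, and MIR100HG holds miR-100, let-7a-2, miR-125b-1 and miR-10526. Among the 345 members, 17 held 27 microRNA genes on their own strand, and 14 of these 17 were among the 15 microRNA host members.

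The promoters of 3 members called for RGZ, MIR22HG, LINC00941 and BAIAP2-DT, and that of LINC00673 are shown because these transcripts changed with the PPARγ agonist in a test. Each covers 250 bases before to 50 bases after the annotated start, from RefSeq (GRCh38.p14), 5′ to 3′ on the strand of the gene. MIR22HG is at chr17:1716161-1716460 on the minus strand, LINC00941 at chr12:30795431-30795730 on the plus strand, BAIAP2-DT at chr17:81034670-81034969 on the minus strand and LINC00673 at chr17:72592755-72593054 on the minus strand. Capitals mark the motif AGGTCA, a single copy of the site for nuclear receptors, which was searched on both strands.
MIR22HG: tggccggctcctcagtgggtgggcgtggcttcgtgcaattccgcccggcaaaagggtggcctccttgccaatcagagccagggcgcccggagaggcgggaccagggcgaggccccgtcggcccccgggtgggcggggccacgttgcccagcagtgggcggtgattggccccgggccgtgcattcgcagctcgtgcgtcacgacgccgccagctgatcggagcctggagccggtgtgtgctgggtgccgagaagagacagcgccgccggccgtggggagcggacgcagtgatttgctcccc
LINC00941: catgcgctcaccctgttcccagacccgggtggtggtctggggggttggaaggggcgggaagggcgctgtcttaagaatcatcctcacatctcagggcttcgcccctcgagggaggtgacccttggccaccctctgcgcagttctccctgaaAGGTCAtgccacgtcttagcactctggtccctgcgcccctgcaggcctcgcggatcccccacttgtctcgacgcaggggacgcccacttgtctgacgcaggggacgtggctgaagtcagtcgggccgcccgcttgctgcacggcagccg
BAIAP2-DT: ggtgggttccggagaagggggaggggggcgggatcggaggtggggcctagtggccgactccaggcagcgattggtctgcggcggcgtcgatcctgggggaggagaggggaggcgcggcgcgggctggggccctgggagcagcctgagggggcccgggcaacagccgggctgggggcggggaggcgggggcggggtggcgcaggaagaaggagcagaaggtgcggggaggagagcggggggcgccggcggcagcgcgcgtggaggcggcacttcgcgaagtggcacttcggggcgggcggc
LINC00673: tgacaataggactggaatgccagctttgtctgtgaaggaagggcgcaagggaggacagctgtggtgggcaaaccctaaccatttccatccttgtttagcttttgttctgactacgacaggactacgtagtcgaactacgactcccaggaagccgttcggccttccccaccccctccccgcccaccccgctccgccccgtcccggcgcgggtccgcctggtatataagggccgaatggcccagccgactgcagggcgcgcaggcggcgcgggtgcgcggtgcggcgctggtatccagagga
LINC00941 held 1 motif, from 99 to 94 bases before the start, and the other windows shown held 0. MIR100HG, called for RGZ below with the experiment as a term in the fit, held 1 motif and is not shown. LNCOC1, also called for RGZ below, had no window among the promoters searched. Of the 29 members with a window that were called in such fits, 3 (10.3%) held the motif, beside 13.3% of the 271 members with a window. The motif on either strand was present in 13.8% of all 35116 promoter windows and in 11.9% of the 327 windows of members. The full element, AGGTCA and AGGTCA separated by any 1 base, was present in 8 of the 35116 windows and in 0 of those of members. A match is a description of letters, and binding of the receptor was not measured here.

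The 345 members consisted of 170 antisense genes, 95 LINC or LNC genes, 46 divergent genes, 18 snoRNA hosts, 15 microRNA hosts and 1 intronic gene, GABPB1-IT1. Their share among all genes of the same form differed widely. Of the snoRNA host symbols in the table, 90.0% (18 of 20) reached 1 CPM, against 65.2% (15 of 23) of the microRNA hosts, 40.4% (46 of 114) of the divergent genes, 29.4% (170 of 578) of the antisense genes, 16.2% (95 of 586) of the LINC or LNC genes and 3.85% (1 of 26) of the intronic genes. Mean levels ran from 1.00 to 837 CPM with a median of 4.52 CPM. Of the members, 87 had a mean of 10 CPM or more and 9 a mean of 100 CPM or more.

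**Figure D1:**
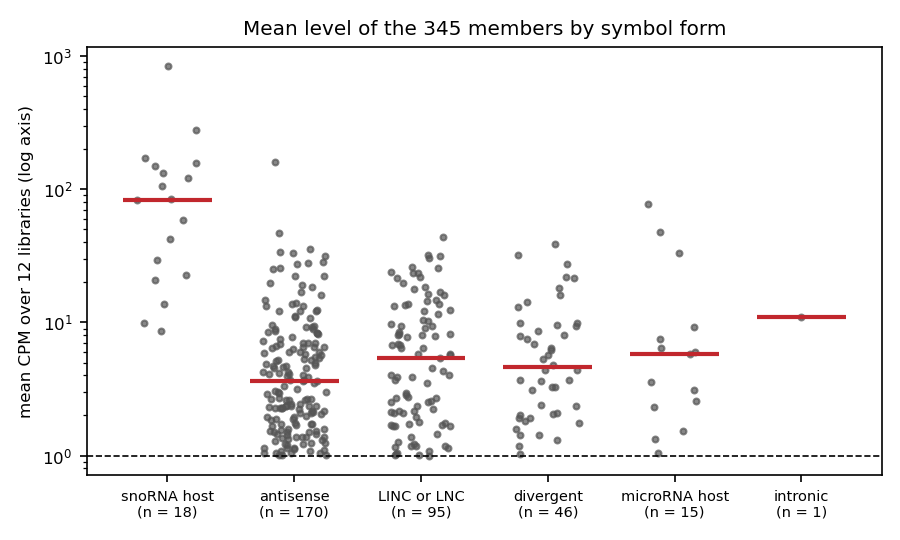
Mean CPM over the 12 libraries (log axis) of each of the 345 members, 1 point per gene, by the form of its symbol, with the median of each form as a red line and the threshold of 1 CPM as a dashed line. The 18 snoRNA hosts have a median of 83.6 CPM, and the medians of the LINC or LNC, antisense, divergent and microRNA host genes lie between 3.61 and 5.81 CPM.

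The snoRNA hosts led by level. They took 46.9% of the summed mean level of all members, and SNHG29 alone took 16.8%. Per length of the longest annotated transcript, known for 329 members, the median was 44.4 CPM per kb for the snoRNA hosts and 2.00 CPM per kb for all members with a length. The 5 highest members on this scale were SNHG29 with 504 CPM per kb, SNHG6 with 189, SNHG5 with 168, SNHG8 with 124 and SNHG1 with 101 CPM per kb. Host transcripts of this class are spliced, and several of them start with the oligopyrimidine tract of messages for ribosomal proteins.

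SNHG29 was measured at 709, 881 and 785 CPM in the vehicle libraries of experiments 1, 2 and 3, at 748, 900.4 and 859.6 CPM with RGZ, at 723, 815 and 876 CPM with T0070907 and at 889, 940.3 and 924 CPM with both. The combination lay above every vehicle and every T0070907 library, while the other 3 conditions overlapped. SNHG1, host of a run of box C/D snoRNAs, lay between 254 and 307 CPM in all 12 libraries, and its conditions overlapped throughout. FGD5-AS1, the only one of the 10 highest members by mean CPM that is not a snoRNA host, had condition means between 151 ± 10.4 CPM (SD, n = 3) with both compounds and 169 ± 13.0 CPM (SD, n = 3) with vehicle. The other members of these 10 were SNHG5, SNHG16, SNHG17, SNHG3, SNHG6, SNHG7 and SNHG32, with means from 83.9 to 173 CPM.

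At the threshold of 1 CPM, the members just inside were GNG12-AS1 (1.0035 CPM), EHBP1-AS1 (1.0031 CPM) and LINC00525 (1.0001 CPM), and the genes just outside were MRPL23-AS1 (0.9957 CPM), MAP3K14-AS1 (0.9931 CPM) and CEP83-DT (0.9931 CPM). Of the 345 members, 37 had a condition mean under 1 CPM, and 6 were under 3 counts in at least 1 library. All 345 passed the filter on low counts, among 13522 genes tested.

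Together the members took between 0.469% and 0.520% of all counts of a library. Their summed level was 4755, 5076 and 4873 CPM in the vehicle libraries of experiments 1, 2 and 3, 4685, 5006 and 4968 CPM with RGZ, 4744, 4999 and 5165 CPM with T0070907, and 5129.9, 5196 and 5199 CPM with both. The 3 libraries with both compounds lay above all vehicle and all RGZ libraries, and they overlapped with T0070907. The snoRNA hosts alone summed to 2109, 2357 and 2240.1 CPM with vehicle, 2196, 2405 and 2407 CPM with RGZ, 2104, 2229.6 and 2432 CPM with T0070907 and 2562, 2409.5 and 2564 CPM with both. The combination lay above vehicle and RGZ but overlapped with T0070907. No test was made of a sum over members.

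**Figure D2:**
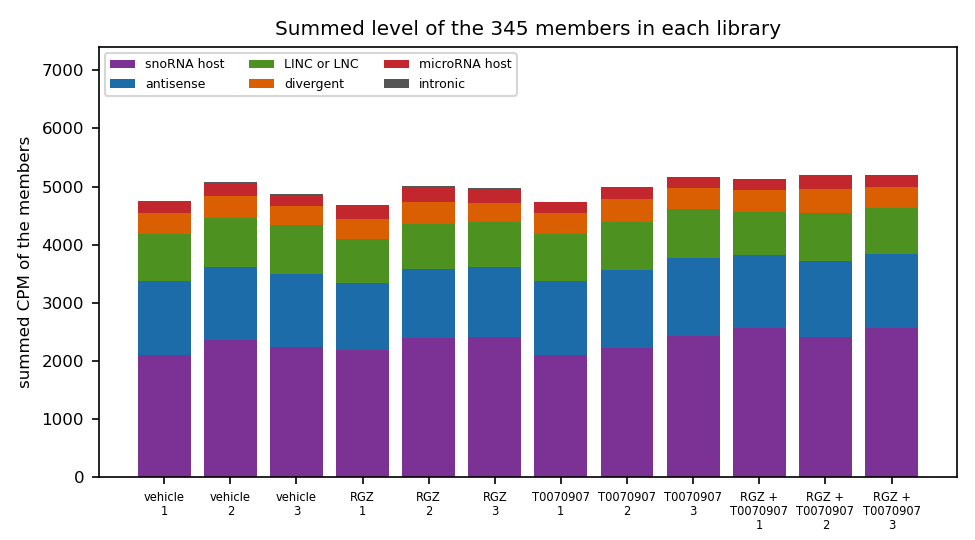
Summed CPM of the 345 members in each of the 12 libraries, labelled by condition and experiment number, with the bars stacked by the form of the symbol. The total lies between 4685 and 5199 CPM, and the snoRNA hosts (purple) form the largest block of each bar.

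Reads of a gene and of a gene on the opposite strand cannot be told apart unless counting used the strand, which is not given in the sources used here. In GENCODE v29, exons of 191 members overlapped exons of another gene on the opposite strand, among them 143 of the 170 antisense genes, and exons of 65 members overlapped another gene on the same strand. Values of these members, of FGD5-AS1 and SNHG29 as much as of LNCOC1 (exons opposite LY6K), are uncertain in that respect. MIR22HG, MIR100HG and BAIAP2-DT had no exon opposite another gene.

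The cells carried part of the melanocyte lineage program. Of 10 lineage markers, 5 had a mean of 1 CPM or more, SOX10 (308 CPM), ERBB3 (216 CPM), MITF (43.9 CPM), S100B (27.5 CPM) and S100A1 (23.4 CPM), while the pigment genes PMEL, MLANA, TYRP1 and DCT were under 1 CPM and TYR was at 0 counts in all libraries. Leukocyte (PTPRC, CD3E) and endothelial (PECAM1, CDH5) markers had means under 1 CPM. Of the keratinocyte markers KRT1 was at 0 and KRT14, the most abundant, averaged 20.5 CPM, and of the fibroblast markers COL1A1 averaged 12.4 CPM.

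RGZ raised known PPARγ targets. All 5 targets examined were called higher with RGZ than with vehicle (edgeR, adjusted p under the threshold of 0.05 over all 13522 genes). ANGPTL4, which inhibits lipoprotein lipase, was at 3.45, 5.29 and 8.44 CPM with vehicle and at 374, 438 and 438 CPM with RGZ, and PLIN2, which coats lipid droplets, rose by 2.62 ± 0.20 (log2 fold change ± SE; edgeR, adjusted p = 1.67e-04; higher in 3 of 3 experiments). With both compounds ANGPTL4 was at 5.46, 11.04 and 41.0 CPM, with T0070907 alone at 0.587, 0.370 and 0.967 CPM. FABP4, the fatty acid carrier of adipocytes, was under the detection floor in all 3 vehicle libraries and at 192, 390.3 and 163 CPM with RGZ. PDK4 and CPT1A were the other targets called. All 5 were called lower with both compounds than with RGZ alone. With the experiment as a term in the fit, edgeR called all 5 higher with both compounds than with T0070907, against 1 without it. With that term PLIN2, CPT1A and PDK4 were called lower with T0070907 than with vehicle, against 0 targets without it. The calls of FABP4 against T0070907 and of PDK4 for T0070907 were each lost when a single library was left out, a choice made after seeing the data.

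Libraries of the same experiment resembled each other, so each comparison was also fitted with the experiment as a term, the replicate block, and the counts of members called are given without and with it. The library with both compounds of experiment 1 stood furthest from the others of its experiment. The correlation of its deviation from the mean of its condition with those of the other libraries of experiment 1 was between 0.0791 and 0.196 across genes, against at least 0.359 for every other pair of libraries of 1 experiment. Counts of members called that use it are given below also without it, as are the values of the snoRNA hosts, the partner genes and the overlap of the RGZ effects. For fits that leave out a library, the share of all tested genes called is not given. Those counts are therefore not read as a result about the members. Members scattered more than genes at large, in a comparison not matched for level. The median biological coefficient of variation, the square root of edgeR's dispersion, was 0.161 for members and 0.110 for all tested genes, and with the replicate block 0.0624 and 0.0549.

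RGZ raised MIR22HG, LNCOC1 and LINC00941 and lowered BAIAP2-DT. These 4 of 345 members (1.16%) were called with RGZ against vehicle, beside 1.24% of all tested genes. Higher were 3 members, beside 0.947% of all tested genes, and lower was 1, beside 0.288%. The share of members called was therefore near that of all genes, and the members are described one by one.

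MIR22HG was at 32.2, 31.6 and 32.0 CPM in the vehicle libraries of experiments 1, 2 and 3, at 41.0, 44.4 and 44.5 CPM with RGZ, at 26.3, 28.2 and 25.1 CPM with T0070907 and at 27.9, 31.1 and 32.9 CPM with both. All RGZ libraries were higher than all others, and all T0070907 libraries lower than all vehicle libraries. The increase with RGZ was 0.49 ± 0.08 (log2 fold change ± SE; edgeR, adjusted p = 0.00996; higher in 3 of 3 experiments). The transcript is the precursor of the miR-22 arms printed above.

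LINC00941, which carried the AGGTCA motif in its promoter window, was at 15.7, 14.8 and 15.5 CPM with vehicle, 20.7, 20.6 and 20.01 CPM with RGZ, 12.7, 14.0 and 14.7 CPM with T0070907 and 13.2, 15.5 and 14.6 CPM with both. The RGZ libraries did not overlap with any other condition. It rose by 0.47 ± 0.10 with RGZ (edgeR, adjusted p = 0.0398). LNCOC1 was at 11.3, 9.74 and 9.15 CPM with vehicle, 14.3, 15.8 and 15.5 CPM with RGZ, 7.16, 8.22 and 6.94 CPM with T0070907 and 8.66, 8.58 and 10.5 CPM with both. Its RGZ libraries were again the highest and its T0070907 libraries the lowest of all, and it rose by 0.65 ± 0.13 with RGZ (edgeR, adjusted p = 0.0398).

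BAIAP2-DT, which is read away from the promoter of BAIAP2, the gene of an adaptor protein of the actin cytoskeleton, had the opposite course. It was at 13.6, 15.9 and 12.6 CPM with vehicle, 8.71, 8.22 and 9.21 CPM with RGZ, 16.5, 17.6 and 16.5 CPM with T0070907 and 13.1, 13.6 and 12.04 CPM with both. The RGZ libraries were the lowest of all and the T0070907 libraries the highest. The change with RGZ was -0.63 ± 0.12 (edgeR, adjusted p = 0.0240; lower in 3 of 3 experiments), while BAIAP2 itself differed by 0.04 ± 0.10 (adjusted p = 0.916). Without the block, the number of members called was 0 without vehicle replicate 1 or RGZ replicate 3, 1 without vehicle replicate 2, RGZ replicate 1 or RGZ replicate 2, and 2 without vehicle replicate 3. MIR22HG was called in 4 of these 6 fits, BAIAP2-DT in 1, and LINC00941 and LNCOC1 in 0. With the block, MIR22HG, LNCOC1, LINC00941 and BAIAP2-DT were all called whichever of the 6 libraries was left out.

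**Figure D3:**
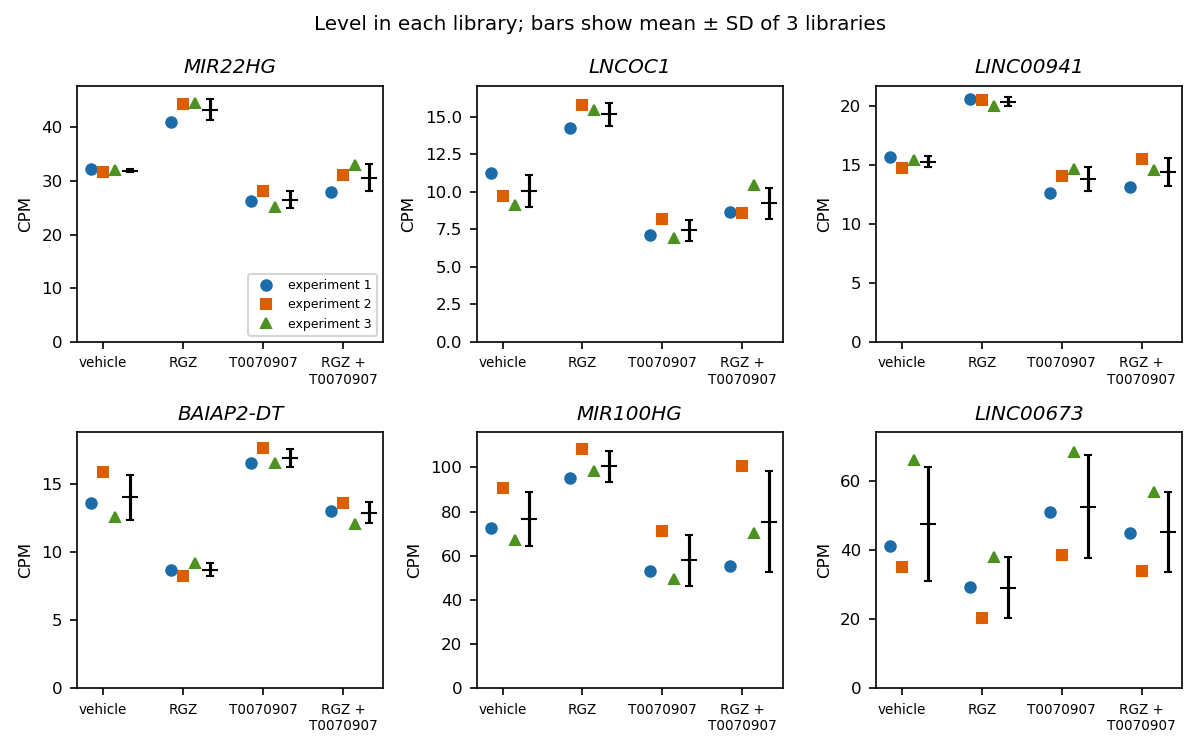
CPM in each of the 12 libraries for MIR22HG, LNCOC1, LINC00941, BAIAP2-DT, MIR100HG and LINC00673, by condition, with experiments 1 to 3 as circles, squares and triangles and the mean ± SD of 3 libraries in black. The RGZ libraries lie apart from all others in the upper 3 panels and for BAIAP2-DT, whereas experiment 2 is the highest in every condition for MIR100HG and experiment 3 for LINC00673.

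With the replicate block, 17 members (4.93%) were called for RGZ, beside 9.30% of all tested genes. They were 10 higher members, beside 4.95% of all genes called higher, and 7 lower members, beside 4.35% called lower. By form, 8 were LINC or LNC genes (4 higher, 4 lower), 3 microRNA hosts (3 higher), 3 antisense genes (1 higher, 2 lower), 2 snoRNA hosts (SNHG15 and SNHG17, both higher) and 1 a divergent gene. Without vehicle replicate 3 the count was 9 and without vehicle replicate 2 it was 19. It was 10 without vehicle replicate 1, 11 without RGZ replicate 1 and 10 without RGZ replicate 3.

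Of the 15 microRNA hosts, 3 were among the higher members, MIR22HG, MIR100HG and MIR31HG. Of all 15, 6 had a log2 fold change above 0, and their median was -0.02. MIR100HG, the host of miR-100, let-7a-2 and miR-125b-1, was at 72.4, 90.6 and 67.1 CPM with vehicle, 94.99, 108 and 98.2 CPM with RGZ, 53.0, 71.2 and 49.5 CPM with T0070907 and 55.4, 100.5 and 70.3 CPM with both. Experiment 2 was the highest within each condition, and the RGZ libraries lay above those with vehicle or T0070907. With the block it rose by 0.45 ± 0.09 with RGZ (edgeR, adjusted p = 0.00217; higher in 3 of 3 experiments), against 0.44 ± 0.19 without it (adjusted p = 0.414). MIR31HG, near the CDKN2A tumour suppressor locus, was at 6.91, 12.5 and 4.99 CPM with vehicle and 10.0, 14.1 and 9.90 CPM with RGZ, which overlap, and rose by 0.55 ± 0.16 with the block (edgeR, adjusted p = 0.0345). The call was lost without vehicle replicate 1, vehicle replicate 3, RGZ replicate 1, RGZ replicate 2 or RGZ replicate 3 (adjusted p from 0.078 to 0.237), while for MIR100HG the call held whichever of the 6 libraries was left out.

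LINC00673, also known as SLNCR1 and studied for its part in melanoma invasion, was at 41.3, 35.1 and 66.2 CPM with vehicle, 29.3, 20.3 and 38.0 CPM with RGZ, 51.0, 38.5 and 68.4 CPM with T0070907 and 45.0, 34.0 and 57.0 CPM with both. RGZ and vehicle overlapped, with experiment 3 high and experiment 2 low in all conditions, but within each experiment the RGZ library was the lowest. Its within-experiment log2 ratios of RGZ to vehicle were -0.50, -0.79 and -0.80, and with the block it fell with a log2 fold change of -0.64 ± 0.08 (edgeR, adjusted p = 3.62e-05), and the call held whichever of the 6 libraries was left out. Without the block the adjusted p was 0.487. LINC00511, its neighbour on chromosome 17, was at 3.34, 3.00 and 7.01 CPM with vehicle and 2.23, 1.78 and 3.07 CPM with RGZ, lower in 3 of 3 experiments, with a log2 fold change of -0.85 ± 0.22 (edgeR with the block, adjusted p = 0.0167). For LINC00511 the call was lost without vehicle replicate 3 or RGZ replicate 3 (adjusted p from 0.145 to 0.221).

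LINC00525, the member nearest the threshold of 1 CPM, was at 0.576, 0.962 and 0.832 CPM with vehicle, 1.22, 2.11 and 1.78 CPM with RGZ, 0.469, 0.462 and 0.440 CPM with T0070907 and 0.593, 1.61 and 0.950 CPM with both. Its mean of 1.70 CPM with RGZ, against 0.790 CPM with vehicle, is what brought it to the threshold, so its place among the 17 members called is no independent result, and the call was lost whichever of the 6 libraries was left out (adjusted p from 0.0731 to 0.119). LINC01619 was at 2.07, 2.04 and 2.02 CPM with vehicle and 2.84, 2.33 and 5.94 CPM with RGZ, where experiment 3 was far above the other RGZ libraries. It changed by 0.88 ± 0.26 (edgeR with the block, adjusted p = 0.0389), and the call was lost without vehicle replicate 1, vehicle replicate 3, RGZ replicate 2 or RGZ replicate 3 (adjusted p from 0.0716 to 0.506). The widest decrease among them was that of LINC00327, from 3.11, 1.08 and 4.64 CPM with vehicle to 0.405, 0.667 and 2.38 CPM with RGZ, a change of -1.32 ± 0.31 (edgeR with the block, adjusted p = 0.0102). It was lower in each experiment, although the experiments differed among themselves by more than that, and the call was lost without vehicle replicate 1 or RGZ replicate 1 (adjusted p from 0.0627 to 0.0698). SDCBP2-AS1 (-0.70 ± 0.19, adjusted p = 0.0245) and TPT1-AS1 (-0.67 ± 0.19, adjusted p = 0.0272) also fell by edgeR with the block, and both have exons opposite another gene. For SDCBP2-AS1 the call was lost without vehicle replicate 2, vehicle replicate 3, RGZ replicate 1 or RGZ replicate 3 (adjusted p from 0.0686 to 0.179), and for TPT1-AS1 the call was lost without vehicle replicate 1, vehicle replicate 3, RGZ replicate 1 or RGZ replicate 2 (adjusted p from 0.074 to 0.191). TPT1, a highly translated message for a calcium-binding protein, differed by 0.06 ± 0.05 (adjusted p = 0.527), and SDCBP2 was under the detection floor in every library.

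As a group, 16 of the 18 snoRNA hosts had a log2 fold change above 0 with RGZ, with a median of 0.13, beside a median of -0.01 over all tested genes and -0.04 over all members. The count was 16 with DESeq2's size factors as well, and 0 of the 18 were called without the block by edgeR.

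Markers moved with RGZ as well. Without the block edgeR called 0 of the 6 lineage markers tested. With the block, ERBB3, MITF and S100B were called lower, KRT14 changed by -0.94 ± 0.14 (edgeR, adjusted p = 1.82e-04) and COL1A1 by -0.76 ± 0.13 (adjusted p = 6.72e-04). The 3 keratinocyte markers, of which KRT1 was at 0, summed to 18.99, 14.4 and 33.8 CPM with vehicle, 10.9, 6.33 and 16.2 CPM with RGZ, 28.0, 21.5 and 38.1 CPM with T0070907 and 26.9, 13.3 and 30.0 CPM with both. The 4 fibroblast markers summed to 15.1, 34.4 and 13.2 CPM with vehicle, 11.3, 20.7 and 9.01 CPM with RGZ, 17.7, 35.9 and 16.0 CPM with T0070907 and 13.3, 27.7 and 10.98 CPM with both. Both sums were lower with RGZ than with vehicle in each experiment, and their part in the values of the members was not tested. In the other comparisons markers were called with the block only. For T0070907 against vehicle S100B was higher (0.59 ± 0.11; edgeR with the block, adjusted p = 0.0119). For the combination against RGZ, MITF, S100B, S100A1 and ERBB3 were higher, as was KRT14 (1.10 ± 0.14; edgeR with the block, adjusted p = 3.20e-05). Against T0070907, ERBB3 (-0.30 ± 0.08) and COL1A1 (-0.55 ± 0.12) were lower with the combination. All of these marker calls against RGZ or T0070907 held without the combination library of experiment 1. The calls of MITF and S100A1 against RGZ, of ERBB3 and COL1A1 against T0070907, of S100B for T0070907 against vehicle and of MITF for RGZ against vehicle were each lost when a single library was left out, a choice made after seeing the data. The part of the markers in the members' values was not tested in these comparisons either. All libraries are of the A375 line, and in bulk RNA fewer cells with a marker and less of its RNA per cell cannot be told apart.

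T0070907 alone changed few genes. No member was called against vehicle by edgeR, with 0 of 345 at an adjusted p under 0.05 beside 0.00740% of all tested genes, and 14 members at an unadjusted p under 0.05 beside 3.10% of all tested genes. DESeq2 called 0 members too, beside 21 of all 13522 tested genes. With the block 1 member (0.290%) was called, beside 0.910% of all genes. That member was MIR100HG, with within-experiment log2 ratios of -0.45, -0.35 and -0.44 and a log2 fold change of -0.43 ± 0.09 (edgeR with the block, adjusted p = 0.0308). It was lower in 3 of 3 experiments, and the call was lost whichever of the 6 libraries was left out (adjusted p from 0.0888 to 0.304). MIR22HG (-0.29 ± 0.08, adjusted p = 0.142), LNCOC1 (-0.45 ± 0.14, adjusted p = 0.201) and BAIAP2-DT (0.26 ± 0.10, adjusted p = 0.402) did not pass the test by edgeR with the block, although their T0070907 and vehicle libraries did not overlap.

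With both compounds together against vehicle, edgeR without the block called 0 of 345 members, beside 0% of all tested genes, with 37 at an unadjusted p under 0.05 (10.7%), beside 10.6% of all tested genes. With the block 0 members were called, beside 0% of all genes, and 59 (17.1%) had an unadjusted p under 0.05, beside 21.2%. DESeq2 called 0 members without the block, beside 0 of all 13522 tested genes. With the block DESeq2 called 3, SNHG29, SNHG8 and SNHG6, which are 0.870% of the members beside 1.68% of all tested genes. The blocked count by edgeR depended on single libraries, with 14 members called without vehicle replicate 2 and 32 without replicate 2 of the combination, and 0 without the library of experiment 1 that stood apart. The share of all tested genes called in these fits is not given, so these counts show nothing particular to the members. MIR22HG differed from vehicle by -0.03 ± 0.08, LNCOC1 by -0.09 ± 0.14, LINC00941 by -0.05 ± 0.10 and BAIAP2-DT by -0.09 ± 0.11 on the log2 scale (± SE), and none passed the test.

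This comparison shares its vehicle libraries with that of RGZ against vehicle, and the values of the snoRNA hosts are given for each by itself. Of the 18, 17 had a log2 fold change above 0, with a median of 0.25 beside -0.001 over all tested genes and 0.06 over all members. The median was 0.25 with DESeq2's size factors as well, and without the combination library of experiment 1 it was 0.18, with 16 of the 18 above 0. SNHG8 was at 70.8, 82.7 and 78.3 CPM with vehicle, 70.8, 87.4 and 86.1 CPM with RGZ, 65.5, 82.8 and 88.5 CPM with T0070907 and 99.7, 90.4 and 96.1 CPM with both. The combination lay above all other libraries. SNHG29 differed by 0.25 ± 0.06 with the block (edgeR, adjusted p = 0.0989; higher in 3 of 3 experiments), and so did not pass.

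Adding T0070907 to RGZ lowered MIR22HG, LNCOC1 and LINC00941 and raised BAIAP2-DT, relative to RGZ alone. These 4 members (1.16%) were called, beside 1.24% of all tested genes, 1 higher beside 0.311% and 3 lower beside 0.924% of all genes called in that direction. This comparison shares its RGZ libraries with that of RGZ against vehicle, so the same libraries stand on the other side of both and the values are only set side by side. MIR22HG changed by -0.52 ± 0.08 (edgeR, adjusted p = 0.00845), LNCOC1 by -0.73 ± 0.13 (adjusted p = 0.0192), LINC00941 by -0.52 ± 0.10 (adjusted p = 0.0221) and BAIAP2-DT by 0.54 ± 0.12 (adjusted p = 0.0476). Each went the same way in 3 of 3 experiments. Leaving out single libraries, the number called was 1 without RGZ replicate 1, 2 or 3 or combination replicate 1, which stood apart, and 2 without combination replicate 2 or 3. MIR22HG was called in all 6 of these fits, LNCOC1 and LINC00941 in 1 each and BAIAP2-DT in 0. By DESeq2 without the block 3 members were called, beside 318 of all 13522 tested genes, and BAIAP2-DT did not pass (adjusted p = 0.0561).

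With the block, 22 members (6.38%) were called for the combination against RGZ, beside 11.4% of all genes. There were 13 higher members, beside 5.55% of all genes called higher, and 9 lower members, beside 5.88% called lower. DESeq2 with the block called 6 members higher and 7 lower, beside 492 higher and 579 lower of all 13522 tested genes. The count by edgeR was 17 without the combination library of experiment 1. It was 11 without RGZ replicate 3 and 14 without RGZ replicate 1. LINC00673 was higher by 0.62 ± 0.08 (edgeR with the block, adjusted p = 5.38e-05) and MIR100HG changed by -0.46 ± 0.09 (adjusted p = 0.00179). Both calls held whichever of the 6 libraries was left out.

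Among the widest increases was MIR503HG, the host of miR-503, at 1.52, 2.56 and 2.48 CPM with RGZ and 4.27, 4.72 and 4.01 CPM with both. The groups did not overlap, and the change was 0.96 ± 0.22 (edgeR with the block, adjusted p = 0.00792), and the call was lost without RGZ replicate 1 (adjusted p = 0.0746). SERTAD4-AS1 was at 8.30, 5.89 and 10.2 CPM with RGZ and 16.7, 11.1 and 15.2 CPM with both, and its opposite gene SERTAD4 at 19.3, 9.55 and 21.1 and 22.2, 23.3 and 29.5 CPM. Both rose with the block, SERTAD4-AS1 by 0.79 ± 0.18 and SERTAD4 by 0.58 ± 0.13 (edgeR, adjusted p = 0.00790 and 0.00750), and reads of the pair cannot be told apart without strand. For SERTAD4-AS1 the call was lost without RGZ replicate 2 (adjusted p = 0.0533). WDFY3-AS2 (1.23 ± 0.35), LINC01366 (1.14 ± 0.32) and LINC00327 (1.09 ± 0.32) were the other 3 of the 5 widest increases, all with mean levels under 3 CPM. For WDFY3-AS2 the call was lost without RGZ replicate 1, RGZ replicate 3, combination replicate 2 or combination replicate 3 (adjusted p from 0.0516 to 0.191), for LINC01366 the call was lost without RGZ replicate 1, RGZ replicate 2, RGZ replicate 3 or combination replicate 1 (adjusted p from 0.0757 to 0.124), and for LINC00327 the call was lost without RGZ replicate 1, RGZ replicate 3 or combination replicate 3 (adjusted p from 0.0605 to 0.238).

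Among the widest decreases of the members called were those of LINC01619 (-1.38 ± 0.28; edgeR with the block, adjusted p = 0.00268) and LINC01465 (-1.31 ± 0.38, adjusted p = 0.0316). For LINC01619 the call was lost without RGZ replicate 3 (adjusted p = 0.0653), and for LINC01465 the call was lost without RGZ replicate 1, RGZ replicate 2, RGZ replicate 3, combination replicate 1 or combination replicate 3 (adjusted p from 0.0749 to 0.152). LINC01465 was at 1.27, 1.08 and 1.31 CPM with vehicle, 1.22, 1.33 and 1.29 CPM with RGZ, 1.53, 1.11 and 1.32 CPM with T0070907 and 0.356, 0.750 and 0.422 CPM with both. The combination was below every other library, and the other 3 conditions overlapped. The levels in these 3 conditions are what brought LINC01465 over the threshold of 1 CPM, so its call is no independent result. LINC01465 did not pass the interaction test (edgeR with the block, adjusted p = 0.364).

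RGZ given on top of T0070907 was compared with T0070907 alone. By edgeR 0 of 345 members were called, beside 0.0370% of all tested genes. At an unadjusted p under 0.05 were 37 members (10.7%), beside 15.0% of all tested genes. DESeq2 also called 0 members, beside 83 of all 13522 tested genes. With the block edgeR called 14 members (4.06%), beside 8.76% of all genes. Of these, 9 were higher, beside 4.55% of all genes called higher, and 5 lower, beside 4.22% called lower. DESeq2 with the block called 8 members higher and 0 lower, beside 517 higher and 363 lower of all 13522 tested genes. The count by edgeR was 0 without T0070907 replicate 2 or without replicate 3 of the combination. It was 1 without T0070907 replicate 1, and 5 without replicate 1 and 41 without replicate 2 of the combination.

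The higher members included 4 of the 18 snoRNA hosts, SNHG29, SNHG17, SNHG8 and SNHG15, and 17 of the 18 had a log2 fold change above 0 with a median of 0.20, beside -0.01 over all tested genes. Without the combination library of experiment 1, 0 of the 18 were called, 16 were above 0 and the median was 0.16. PAX8-AS1, opposite the gene of the transcription factor PAX8, was at 8.21, 7.58 and 10.99 CPM with T0070907 and 11.7, 10.6 and 15.7 CPM with both, and at 9.90, 9.14 and 12.01 CPM with vehicle. T0070907 and the combination overlapped, but the ratio was alike in each experiment, with log2 values of 0.52, 0.49 and 0.52. It rose by 0.56 ± 0.12 (edgeR with the block, adjusted p = 0.0147), and the call was lost without T0070907 replicate 1, T0070907 replicate 2, T0070907 replicate 3 or combination replicate 3 (adjusted p from 0.0561 to 0.0781). LINC00473 (0.55 ± 0.14), LINC01116 (0.45 ± 0.12), MIR100HG (0.42 ± 0.09) and RAB30-DT (0.41 ± 0.11) completed the 5 widest increases. The lower members included LINC01465 (-1.27 ± 0.37), LINC00472 (-0.78 ± 0.22), LINC01000 (-0.35 ± 0.10) and BAIAP2-DT (-0.34 ± 0.10; edgeR with the block, adjusted p = 0.0496). LINC01465 was under 1 CPM in every combination library and reached the threshold through the other conditions. Its call is therefore no independent result. No one of these 14 calls held in all 6 fits that left out a library.

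The effects of RGZ without and with T0070907 come from different libraries of the same 3 experiments. Without the block 4 and 0 members were called by edgeR and 0 were shared. With the block, 4 members were called in both comparisons, MIR100HG, SNHG15, SNHG17 and BAIAP2-DT, all 4 in the same direction. Leaving out single libraries, MIR100HG was called in 6 of 6 fits without and 3 of 6 fits with T0070907, BAIAP2-DT in 6 and 0, SNHG15 in 2 and 1, and SNHG17 in 1 and 1. DESeq2 with the block called 0 divergent members for the combination against T0070907, so BAIAP2-DT was shared by edgeR only. The 4 shared members are 23.5% of the 17 called without and 28.6% of the 14 called with T0070907. Over all 13522 genes, 410 were shared, 32.6% of the 1258 called without and 34.6% of the 1185 called with T0070907, and 409 of them had the same direction. Without the combination library of experiment 1, 2 members were shared and the Pearson correlation across members was 0.38. Across the 345 members the log2 fold changes of both comparisons had a Pearson correlation of 0.38 and a Spearman correlation of 0.40, against a Pearson correlation of 0.57 across all 13522 genes. Genes are not independent replicates, and these correlations are descriptions. MIR22HG and LNCOC1, called for RGZ alone, differed by 0.26 ± 0.08 (adjusted p = 0.0546) and 0.36 ± 0.14 (adjusted p = 0.106) when T0070907 was present, by edgeR with the block.

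**Figure D4:**
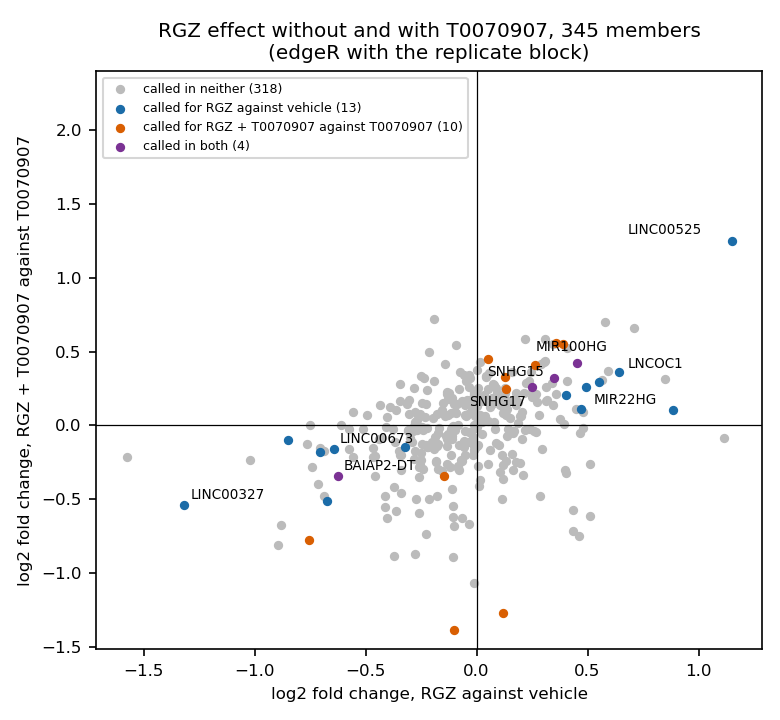
Log2 fold change of each of the 345 members for RGZ against vehicle (horizontal axis) and for RGZ with T0070907 against T0070907 alone (vertical axis), by edgeR with the replicate block, coloured by the comparison in which a member was called. The 4 members called in both lie on the same side of 0 on both axes, and most of the 318 members called in neither lie near the origin.

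Whether T0070907 altered the effect of RGZ was tested as an interaction. By edgeR 0 of 345 members were called, beside 0% of all tested genes, with 5 at an unadjusted p under 0.05 (1.45%), beside 3.00% of all tested genes. With the block 0 members were called, beside 0.281% of all genes, and 24 (6.96%) had an unadjusted p under 0.05, beside 9.79%. DESeq2 called 0 members without the block and 0 with it, beside 1 and 52 of all 13522 tested genes. With the block by edgeR, 1 member was called without combination replicate 2 and 0 without combination replicate 1. The smallest adjusted p among members with the block was 0.0904 for LINC00673, with an interaction of 0.48 ± 0.11 on the log2 scale. For MIR22HG the interaction was -0.23 ± 0.11 (adjusted p = 0.517), for LNCOC1 -0.28 ± 0.19 (0.664), for LINC00941 -0.36 ± 0.14 (0.402) and for BAIAP2-DT 0.28 ± 0.16 (0.585), so a difference between the effects of RGZ without and with T0070907 was not shown for these members.

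More members differed between the experiments than between any pair of conditions compared. With condition in the model, 63 of the 345 members (18.3%) differed between the 3 experiments by edgeR, beside 30.5% of all tested genes. They were 26 LINC or LNC genes, 19 antisense genes, 9 divergent genes, 5 snoRNA hosts and 4 microRNA hosts. Of the 63, 30 were highest in experiment 2, 30 in experiment 3 and 3 in experiment 1. DESeq2's likelihood ratio test called 39, and edgeR called 90 without the combination library of experiment 1, which stood apart. The share of all tested genes called in these fits is not given. The experiments are named by the labels as independent, and no date, passage or batch of an experiment was used here.

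LINC02582 had the widest range of experiment means. It was at 15.2, 51.3 and 4.64 CPM with vehicle, 14.0, 45.4 and 5.25 CPM with RGZ, 9.50, 42.0 and 3.604 CPM with T0070907 and 13.6, 48.5 and 4.65 CPM with both. In every condition experiment 2 was far the highest and experiment 3 the lowest. The experiment means of 13.1, 46.8 and 4.53 CPM span 3.37 on the log2 scale (edgeR, adjusted p = 4.21e-14). ITGB2-AS1, opposite the gene of the integrin beta chain of leukocytes, had experiment means of 3.65, 0.392 and 3.77 CPM, a range of 3.27 (adjusted p = 1.04e-07), and was lowest in experiment 2 in all 4 conditions. ITGB2 itself was also lowest in experiment 2, with 6.33, 0.841 and 5.35 CPM with vehicle and 5.16, 0.889 and 4.46 CPM with RGZ, and reads of this pair cannot be told apart without strand.

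LINC02910 had experiment means of 3.32, 4.62 and 0.894 CPM and was lowest in experiment 3 in all 4 conditions. LINC00327, with 2.17, 1.02 and 4.52 CPM, and LINC01060, with 1.74, 0.989 and 4.33 CPM, were both highest in experiment 3 in all 4 conditions. LINC00327 was the only one of these 5 members that was also called for a treatment, and its value rests on the comparison within experiments.

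**Figure D5:**
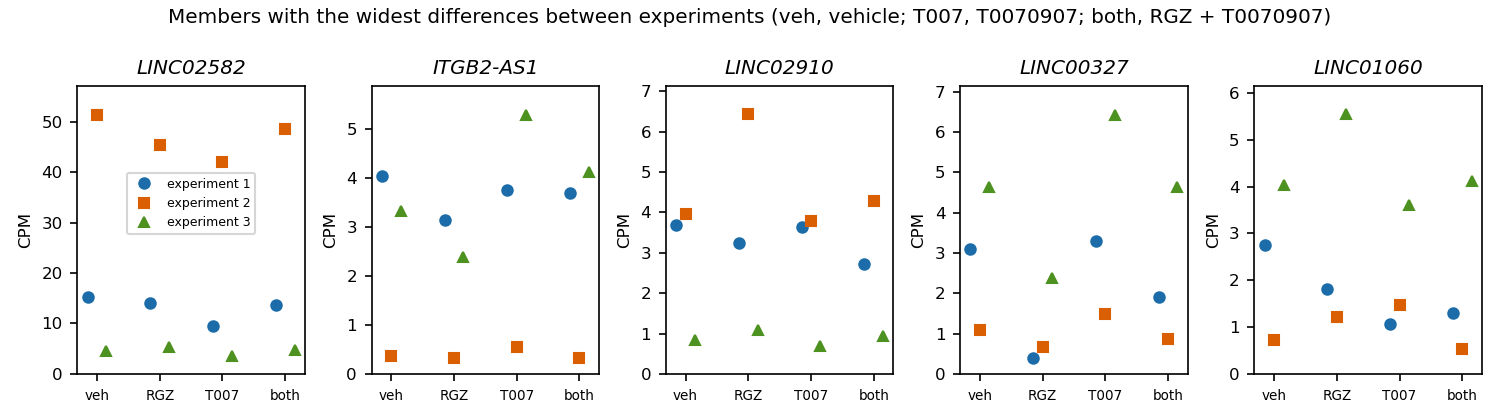
CPM in each of the 12 libraries for the 5 members with the widest range of experiment means among the 63 called, by condition, with experiments 1 to 3 as circles, squares and triangles. Experiment 2 (squares) is the highest for LINC02582 and the lowest for ITGB2-AS1 in every condition, and experiment 3 (triangles) is the lowest for LINC02910.

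Antisense, divergent and intronic members are named after a partner gene. Such a partner was in the table for 215 of 217 members and was tested for 196. In 170 of the 196 pairs the partner had the higher mean CPM, a comparison not corrected for length. With the block, RGZ compared with vehicle gave calls for 3 of these members and for 15 partners, and in 0 pairs for both, beside 9.30% of all tested genes, against 1 member and 2 partners without the block. For the combination against RGZ, 8 members and 20 partners were called with the block, beside 11.4% of all tested genes, and in 2 pairs both, TRHDE-AS1 with TRHDE and SERTAD4-AS1 with SERTAD4, each pair in the same direction, against 1 member, 3 partners and 0 pairs without the block. Without the combination library of experiment 1 there were 18 partners and 2 pairs. TRHDE encodes an enzyme that cleaves thyrotropin-releasing hormone. For the combination against T0070907, 4 members and 19 partners were called with the block, beside 8.76% of all tested genes, with 0 pairs shared, against 0 members and 0 partners without the block. Without the combination library of experiment 1, 9 partners were called with the block. PAX8, with 2.65, 3.25 and 2.85 CPM with vehicle and 5.06, 6.55 and 5.65 CPM with RGZ, rose by 1.03 ± 0.23 with RGZ (edgeR with the block, adjusted p = 0.00750), and PAX8-AS1 by 0.36 ± 0.12 (adjusted p = 0.0828), which did not pass.

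Well known long noncoding RNAs whose symbols lie outside the naming rule were examined for comparison. Of 30 such genes 27 were in the table, and 23 had a mean of 1 CPM or more. Per kb the highest were ZFAS1 (204 CPM per kb), GAS5 (153), DANCR (137) and NORAD (73.6 CPM per kb), all below SNHG29 and of which the first 3 are snoRNA hosts too. NEAT1, the scaffold of paraspeckles, averaged 25.2 CPM per kb and MALAT1, a nuclear speckle RNA, 31.6 CPM per kb. Without the block edgeR called 0 of the 23 tested in any comparison. With the block KCNQ1OT1 was lower with RGZ (-0.43 ± 0.13; edgeR, adjusted p = 0.0454), and the call was lost when any 1 of the 6 libraries compared was left out. For the combination against RGZ, DANCR was called higher (0.32 ± 0.08) and NEAT1 (-0.23 ± 0.07) and MALAT1 (-0.26 ± 0.08) lower. NEAT1 was at 559, 767 and 557 CPM with RGZ and 438, 771 and 455 CPM with both, so it was not lower in experiment 2. DANCR was at 108, 99.5 and 115 CPM with RGZ and 156, 115 and 138 CPM with both, and MALAT1 at 266, 336 and 320.4 and 186, 319 and 285 CPM, with the widest difference of each in experiment 1, whose combination library stands apart. Without that library, a choice made after seeing the data, edgeR with the block gave DANCR 0.20 (adjusted p = 0.0344), NEAT1 -0.17 (0.0711) and MALAT1 -0.14 (0.163). For the combination against T0070907, ZFAS1 was called higher (0.30 ± 0.08) and TUG1 lower (-0.25 ± 0.07), and without that library neither was called (0.20 and -0.15; edgeR with the block, adjusted p = 0.0585 and 0.168). The calls of DANCR, NEAT1, MALAT1, ZFAS1 and TUG1 were each lost when 1 of 2 or more single libraries was left out.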

How the data were processed

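The authors deposited raw counts per gene of 12 libraries, with no normalization, and the table held 0 columns of other samples. The submitters' processing notes name hg19; aligner, annotation and strand are not given in the sources used here. Of the 23705 NCBI gene numbers, 23538 matched a RefSeq symbol. Transcript lengths and exon overlaps came from GENCODE v29 (GRCh38). The members and lists were chosen with earlier results of these data known.

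CPM is the count divided by the library total, times 1000000. Counts were tested in R 4.3.3 with edgeR 4.0.16 (TMM, filterByExpr, quasi-likelihood test, 4 conditions in 1 model), with p-values adjusted by Benjamini-Hochberg over all 13522 tested genes and called under 0.05. The approximate SE is the log2 change over the root of F. The fits were also run on simulated counts with changes between conditions but no difference between experiments. That run therefore does not check the replicate block where experiments differ, as they do here.

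The experiment number in the labels, which describe 3 independent experiments of all conditions, pairs the libraries. The correlation of deviations from condition means was between 0.0791 and 0.753 (median 0.664) for the 18 pairs of the same number. The alternatives were the replicate block, DESeq2 1.42.0, DESeq2's size factors, no filter and leaving out each library. The blocked fits without 1 library or with DESeq2's size factors, and the snoRNA host and partner values without 1 library, were chosen after seeing the data.

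Named were the 10 highest members, members called without the block, up to 5 higher and 5 lower members called with it by size of change, the 5 widest between experiments, those at the threshold and partner genes. SNHG8, SNHG15, TRHDE and TRHDE-AS1, and the changes of MIR100HG and LINC00673 in comparisons outside this rule, were chosen after their values were seen. Floors cover counting error only.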

Additional observations from a re-analysis of the deposited data

How the results depend on the processing

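The number of members called depended on the replicate block and on single libraries. For RGZ against vehicle it was 4 as reported, 17 by edgeR with the replicate block, 10 by DESeq2 with it and 2 by edgeR with no filter on low counts. DESeq2 with the block called 896 of all 13522 tested genes there, and the share of all genes called with no filter is not given. For T0070907 against vehicle it was 0 as reported and 1 with the replicate block by either tool. For the combination it was 3 against vehicle by DESeq2 with the replicate block (0 as reported), 22 and 13 against RGZ by edgeR and DESeq2 with the block (4 as reported), and 14 and 8 against T0070907 (0 as reported). For the experiments DESeq2's likelihood ratio test called 39 in place of 63. The cause of these shifts was not tested. The interaction stayed at 0 members under every alternative run without leaving out a library. DESeq2 without the block and edgeR with DESeq2's size factors stayed within 1.5 times the reported counts in all comparisons they were run for. DESeq2 without the block called 3 members for the combination against RGZ, and BAIAP2-DT was not among them (adjusted p 0.0561). With no filter on low counts edgeR lost LINC00941 (0.0715) and LNCOC1 (0.0547) for RGZ against vehicle and BAIAP2-DT (0.0899) for the combination against RGZ. The cause was not tested.

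Leaving out each library in turn gave between 0 and 2 members for RGZ against vehicle, between 1 and 2 for the combination against RGZ, 0 throughout for T0070907 and for the combination against vehicle, for the combination against T0070907 and for the interaction, and between 44 and 90 for the experiments. With the replicate block, fits chosen after seeing the data gave between 9 and 19 for RGZ against vehicle, 0 throughout for T0070907, between 0 and 32 for the combination against vehicle, between 11 and 33 against RGZ, between 0 and 41 against T0070907, and between 0 and 1 for the interaction. With DESeq2's size factors these blocked counts moved by at most 1 member. The share of all tested genes called in the fits without a library is not given, so their counts show nothing particular to the members.

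Of 35 changes of named members in the comparisons where they were called, none changed sign under these alternatives. Without the combination library of experiment 1, a choice also made after seeing the data, the snoRNA hosts called with the block fell from 1 to 0 against RGZ and from 4 to 0 against T0070907, long noncoding RNAs outside the naming rule called with the block from 3 to 1 against RGZ and from 2 to 1 against T0070907 (neither of the 2 called with all libraries), partner genes called against T0070907 from 19 to 9, and members shared by both RGZ effects from 4 to 2. There were 3 libraries a condition and a median of 41.5 counts per member and library, and the smallest change detectable at this depth was not tested.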
